A study of Mus musculus with 8 samples.

Results

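The MiT/TFE transcription factors Tfeb, Tfe3 and Mitf were examined together with folliculin (Flcn) and its binding partners Fnip1 and Fnip2, in fibroblasts that were fed or starved of glucose. The members were the rows with these 6 names in a table of 49492 gene names, and all 6 were among the 16232 genes that were tested because they reached a value of 1 in at least 2 samples. The RNA-seq table covered 8 libraries of mouse embryonic fibroblasts (MEFs), with 2 replicates in each of 4 groups: Pontin WT in normal medium, Pontin WT under glucose starvation, Pontin RA in normal medium and Pontin RA under glucose starvation. All 4 groups came from Pontin f/f MEFs, an immortalized line that, in the study, received a Flag-tagged Pontin gene by lentivirus and lost its own Pontin through Cre. Pontin is an ATPase of chromatin remodelling complexes, and in RA 2 of its arginines, sites of methylation, are replaced by alanine. In the study, starved cells were washed and kept in medium without glucose that held dialyzed serum. The serum of routine culture is not called dialyzed, so an effect of the serum and an effect of glucose cannot be told apart. The length of the starvation of these libraries is not given in the sources used here. Each form of Pontin was carried by its own stable line, so an effect of the line and an effect of the Pontin form cannot be told apart. The table marks its columns minus and plus, and these were taken to mean normal medium and starvation, which is how the study marks them.

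Tfeb, Tfe3 and Mitf are related basic helix-loop-helix proteins that bind E-box sequences, and Tfeb and Tfe3 in particular switch on genes of lysosomes and autophagy. In fed cells mTORC1, a kinase on the lysosome surface, phosphorylates them, and 14-3-3 proteins then hold them in the cytoplasm. Folliculin with Fnip1 or Fnip2 acts on the Rag GTPases RagC and RagD, which present these factors to mTORC1, so that loss of folliculin sends them to the nucleus. Much of this control acts on the location of the proteins, which the RNA levels reported here do not measure.

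The libraries held 43205841 to 56363034 recovered reads, and a value of 3 reads lay between 0.0548 and 0.0690. A value is the read count of a gene relative to a library size that the authors scaled, in CPM (counts per library of a fixed nominal size). Vim, Col1a1 and the other 6 fibroblast markers on the list all passed the filter, and none of them was at 0 in any group. Of 9 epithelial, endothelial and blood markers, 3 passed, with Csf1r at 10.4 to 20.1, while Ptprc, the pan-leukocyte gene, was at 0 in 7 of the samples and at 0.0392 in the other. Ruvbl1, which encodes Pontin, stood at 27.6 to 28.4 in both WT groups, at 32.0 and 36.8 in RA in normal medium, and at 42.9 and 45 in starved RA. Its reads do not separate the added copy from the endogenous gene and so do not check the genotype labels. Ruvbl1 was higher in RA than in WT on the log2(value + 1) scale, by 0.29 in normal medium and 0.62 under starvation. Both differences passed the limma test described below. The amount of Pontin RNA thus differed along with its form, and these cannot be told apart here.

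The promoters of Flcn, Fnip1 and Fnip2 are shown because these are the members that rose together. Each is the RefSeq window of 300 bases on GRCm38.p6, from 250 bases before the transcript start to 50 bases after it, written in the direction of the gene. Flcn lies at chr11:59791408-59810016 on the minus strand, with its promoter at chr11:59809990-59810289. Fnip1 lies on the plus strand of the same chromosome, at chr11:54438199-54518235, with its promoter at chr11:54437929-54438228. Fnip2 lies at chr3:79455974-79567796 on the minus strand, with its promoter at chr3:79567630-79567929. Gene positions are those of GENCODE M21 on GRCm38, a later build than the mm9 used for mapping. Capitals mark CACGTGA, which is TCACGTG read on the opposite strand.
Flcn: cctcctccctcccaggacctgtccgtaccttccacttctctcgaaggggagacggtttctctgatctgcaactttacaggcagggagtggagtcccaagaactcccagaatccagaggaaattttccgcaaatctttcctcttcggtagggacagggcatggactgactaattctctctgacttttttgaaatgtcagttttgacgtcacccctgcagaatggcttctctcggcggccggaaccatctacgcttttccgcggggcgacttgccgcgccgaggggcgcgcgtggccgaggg
Fnip1: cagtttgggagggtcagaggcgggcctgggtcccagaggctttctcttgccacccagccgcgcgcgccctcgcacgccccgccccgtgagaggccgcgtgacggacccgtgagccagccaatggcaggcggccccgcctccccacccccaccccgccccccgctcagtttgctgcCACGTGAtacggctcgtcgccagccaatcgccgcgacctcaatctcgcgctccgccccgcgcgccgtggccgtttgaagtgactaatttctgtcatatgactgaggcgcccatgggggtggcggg
Fnip2: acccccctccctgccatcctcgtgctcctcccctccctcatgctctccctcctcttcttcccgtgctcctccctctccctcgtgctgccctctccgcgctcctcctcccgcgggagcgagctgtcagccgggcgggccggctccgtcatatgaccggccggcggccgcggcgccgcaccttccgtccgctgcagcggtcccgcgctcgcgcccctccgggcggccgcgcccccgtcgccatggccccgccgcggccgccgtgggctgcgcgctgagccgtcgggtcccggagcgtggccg

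In these windows both strands were searched for CACGTG, the E-box core, and for TCACGTG, the same core with a preceding T, which is the usual centre of the CLEAR element bound by Tfeb and Tfe3. TCATGTG, the M-box of Mitf, and GTAAACA, a forkhead site, were searched as well. TCACGTG contains CACGTG, so a window with the longer motif is counted under both. Of 11 windows over the 6 members, 1 held CACGTG and TCACGTG, and that was the Fnip1 window, with the match beginning 75 bases before the start. None of the 11 windows held TCATGTG or GTAAACA. Over all 32851 windows of the same length, 7.15% held CACGTG, 3.765% held TCACGTG, 3.772% held TCATGTG and 3.65% held GTAAACA. A list of CLEAR targets had TCACGTG in 13 of 32 windows, and a list of Rag and Ragulator genes had it in 4 of 9 windows. The first list is named for the element that holds this motif, so its share is no separate evidence. Both lists hold Rragc, whose window had the match. A missing match says only that these letters are not in that window.

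In normal medium the question was whether the members differed between RA and WT in cells that were fed, as cells in normal medium are called here. None of the 6 members passed the test (limma with Benjamini-Hochberg adjustment), against a background of 9.63% of all tested genes, with 6.68% higher and 2.95% lower in RA. At an unadjusted p under 0.05 limma counted 1 member, Tfeb. On the recovered reads, edgeR called 0 members and counted 1 at that unadjusted level, while DESeq2 gave 0 in both counts. The 6 differences on the log2(value + 1) scale ran from -0.27 for Tfeb to 0.02 for Tfe3. The interval for Tfeb was -0.52 to -0.01, with an adjusted p of 0.176 in limma, so a lower Tfeb in RA was not established. Fnip1 passed at -0.20 when RA replicate 1 in normal medium was left out (limma, adjusted p = 0.0186) and stood at 0.03 without RA replicate 2. These p-values measure the spread between the samples of a group, which may be technical, because the labels do not say that replicates were separate cultures.

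**Figure D1:**
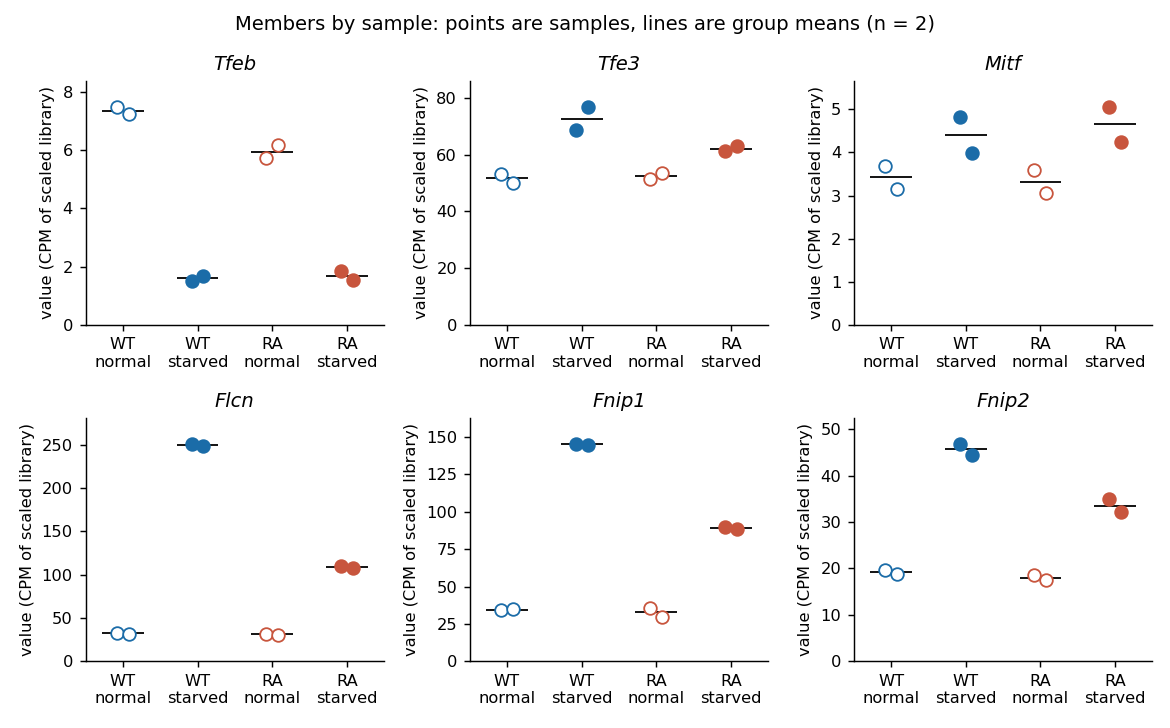
Values of the 6 members (CPM of the scaled library, linear axes from 0) in each sample of the 4 groups, with open points for normal medium, filled points for starvation and a line at each group mean (n = 2). Flcn, Fnip1 and Fnip2 were highest in starved WT and next highest in starved RA, Tfeb was lowest in the starved groups, and Mitf replicates lay far apart relative to the response.

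Under starvation Flcn and both of its partners rose in each genotype, Tfe3 rose slightly, and Tfeb fell. In WT 4 members rose and 1 fell, against 39.3% of all tested genes that rose and 39.2% that fell. In RA 5 members rose and 1 fell, against 35.0% and 33.7%. With most tested genes called in WT, a call by itself sets no gene apart.

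Flcn encodes folliculin, the subunit through which the complex acts on the Rag GTPases. In WT it stood at 32.8 and 32.0 in normal medium and at 251 and 248 under starvation. In RA it stood at 32.2 and 30.6 in normal medium and at 110 and 108 under starvation. The 4 fed samples overlapped, all starved samples lay above them, and starved RA lay wholly below starved WT. The starved mean was 7.71 times the fed mean in WT and 3.47 times in RA. The log2 difference was 2.91 (SE 0.043, limma adjusted p = 8.51e-19) in WT and 1.76 (SE 0.043, limma adjusted p = 1.56e-15) in RA. Between genotypes under starvation it was -1.19 (SE 0.043, limma adjusted p = 2.96e-13), and the responses differed by -1.15 (SE 0.061, limma adjusted p = 1.41e-10). The comparison of the starved groups and the comparison of the responses share the starved samples and are not separate evidence.

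Fnip1 encodes a partner of folliculin that is also a substrate of AMPK, the kinase that senses low cellular energy. Its values were 34.0 and 35.2 in fed WT and 145 and 145 in starved WT. In RA they were 35.4 and 30.0 when fed and 89.5 and 88.8 when starved. The order of the groups was that of Flcn, with overlapping fed samples and a starved RA group below starved WT. The starved mean was 4.20 times the fed mean in WT and 2.73 times in RA, which were log2 differences of 2.04 (SE 0.060, limma adjusted p = 4.32e-15) and 1.42 (SE 0.060, limma adjusted p = 1.43e-12). Starved RA was lower than starved WT by -0.70 on the log2 scale (SE 0.060, limma adjusted p = 2.59e-08), and the difference of the responses was -0.61 (SE 0.084, limma adjusted p = 1.42e-05).

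Fnip2 encodes the other partner, which can take the place of Fnip1 in the complex. It was counted at 19.7 and 18.8 in fed WT, 46.8 and 44.5 in starved WT, 18.5 and 17.5 in fed RA, and 34.9 and 32.1 in starved RA. Neither genotype had a starved sample as low as any fed sample, and the starved groups did not overlap. The response was the smallest of the folliculin genes, with a starved mean 2.37 times the fed mean in WT and 1.86 times in RA. On the log2 scale these were 1.20 (SE 0.065, limma adjusted p = 1.81e-11) and 0.86 (SE 0.065, limma adjusted p = 3.31e-09). The responses differed by -0.34 (SE 0.092, limma adjusted p = 0.00485), and starved RA lay at -0.44 against starved WT (SE 0.065, limma adjusted p = 1.80e-05).

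Tfeb, which lies at chr17:47737030-47792419 on the plus strand, was the member that fell. Its values were 7.48 and 7.24 in fed WT and 1.51 and 1.68 in starved WT. In RA they were 5.75 and 6.16 when fed and 1.84 and 1.53 when starved. The starved samples of both genotypes overlapped each other and rested on 72 to 94 reads each. The fed mean was 4.61 times the starved mean in WT and 3.53 times in RA. On the log2(value + 1) scale, which understates changes at such low values, the differences were -1.69 in WT (SE 0.12, limma adjusted p = 7.29e-10) and -1.38 in RA (SE 0.12, limma adjusted p = 2.00e-08). Starved RA and WT differed by 0.05 (95% interval -0.20 to 0.30, limma adjusted p = 0.745). The responses differed by 0.31 (SE 0.17, limma adjusted p = 0.133), which passed only when limma's mean-variance trend was left out (adjusted p = 0.0428). In bulk samples such as these, fewer cells that carry an RNA and less of it per cell cannot be told apart.

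Tfe3, at chrX:7762560-7775202 on the plus strand, encodes the factor closest to Tfeb in function in fibroblasts. It was at 53.3 and 50.1 in fed WT, 68.6 and 76.8 in starved WT, 51.5 and 53.5 in fed RA, and 61.3 and 63.0 in starved RA. Every starved sample lay above every fed sample, but the steps were small, at 1.41 times the fed mean in WT and 1.18 times in RA. The log2 differences were 0.48 (SE 0.055, limma adjusted p = 4.03e-07) in WT and 0.24 (SE 0.055, limma adjusted p = 0.00101) in RA. Starved RA was below starved WT by -0.22 (SE 0.055, limma adjusted p = 0.00222), but without WT starved replicate 2 the difference was -0.14 and missed the threshold (limma adjusted p = 0.0565). The responses differed by -0.24 (SE 0.078, limma adjusted p = 0.0151). That call was lost in 7 alternatives, with limma adjusted p-values of 0.0569 to 0.0941. They were total-read scaling (-0.17), quantile normalization (-0.18), the fits without the filter and without the trend (both -0.24), and the omission of WT normal replicate 2 (-0.20), WT starved replicate 2 (-0.16) or RA starved replicate 1 (-0.23).

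Mitf, at chr6:97807052-98021349 on the plus strand, is best known as the master regulator of pigment cells. It was counted at 3.70 and 3.14 in fed WT, 4.82 and 3.98 in starved WT, 3.59 and 3.06 in fed RA, and 5.05 and 4.25 in starved RA. The starved samples lay above the fed ones within each genotype, and both genotypes overlapped in each medium. The rise in RA passed, at 0.39 on the log2 scale (SE 0.13, limma adjusted p = 0.0147), and the rise in WT did not, at 0.29 (SE 0.13, limma adjusted p = 0.0531). The responses differed by 0.10 (95% interval -0.29 to 0.49), so they were not shown to differ, and the call in RA was lost without RA normal replicate 2 (limma adjusted p = 0.109) and without RA starved replicate 1 (limma adjusted p = 0.138). Of 8 melanocyte targets of Mitf, 1 passed the filter, Pmel, and Tyrp1 was at 0 in all 8 samples. The summed value of the 8 targets was 1.63 to 2.48 across the samples.

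Tfec, the remaining gene of the MiT/TFE family and one mostly tied to macrophages, was near the filter. Its values were 0.609 and 0.645 in fed WT and 1.09 and 1.06 in starved WT, a log2 difference of 0.35 (limma adjusted p = 0.0369) that DESeq2 did not call (adjusted p = 0.102) and that was lost in 4 of the 8 fits with 1 sample left out. In RA it stood at 0.506 and 0.504 when fed and at 0.666 and 1.16 when starved. That rise did not pass in limma (0.33, adjusted p = 0.0526) or DESeq2 (adjusted p = 0.0919) and passed in edgeR (adjusted p = 0.0406). The rise in WT also passed in edgeR (adjusted p = 0.0480). The responses were not shown to differ (-0.02, limma adjusted p = 0.950).

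**Figure D2:**
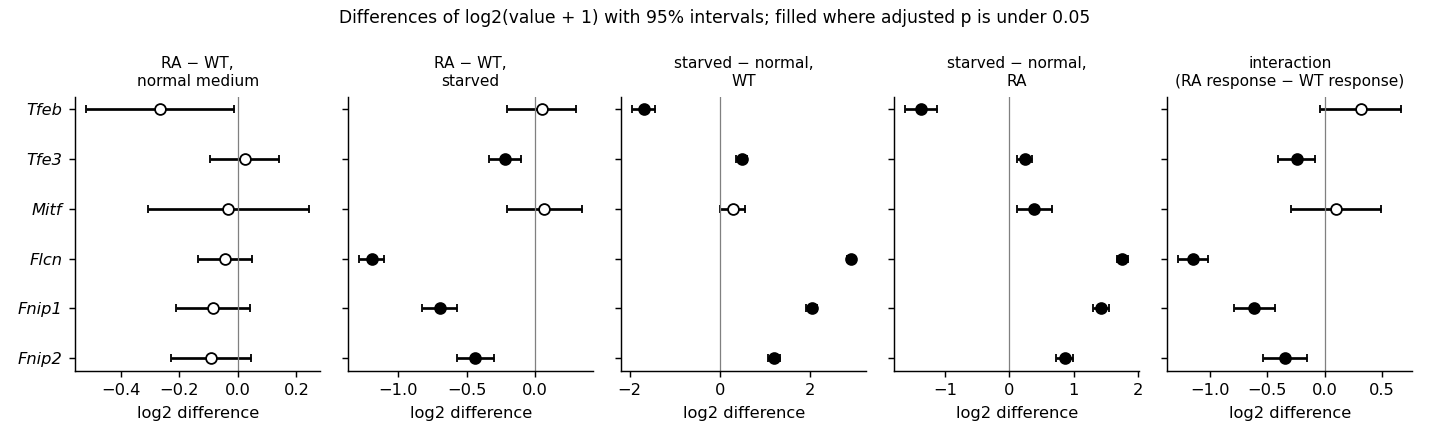
Differences of the 6 members on the log2(value + 1) scale in the 5 comparisons, with a separate axis for each, bars for 95% intervals from limma and filled points where the adjusted p was under 0.05. No point is filled in normal medium, and Flcn has the difference farthest from 0 in the other 4 comparisons.

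Under starvation, 4 members were lower in RA and 0 were higher, against a background of 32.1% lower and 30.8% higher. The members that were lower were Tfe3, Flcn, Fnip1 and Fnip2. The same 4 had a smaller response in RA than in WT, against 26.1% of genes with a negative and 24.5% with a positive difference of responses. The RA response as a share of the WT response, both on the log2 scale, was 0.606 for Flcn, 0.699 for Fnip1, 0.714 for Fnip2, 0.815 for Tfeb and 0.494 for Tfe3. For Mitf it was 1.34, from responses of 0.39 in RA and 0.29 in WT with an SE of 0.13 each. Over all tested genes the major-axis slope of RA on WT responses was 0.635, and the median share was 0.633 over the 1272 genes with a WT rise of 2-fold or more. The shares of Flcn, Fnip1 and Fnip2, 0.606 to 0.714, lay on either side of that median, whose spread over the genes was not computed. The 1272 genes were picked by their WT response and take any rise from 2-fold up, so they are not matched to the rise of each member.

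Levels of different genes were set side by side only per kb of exon, with all annotated exons of a gene merged. In fed WT the order was Flcn at 7.49 ± 0.12 CPM per kb (SD, n = 2), Tfe3 at 5.58 ± 0.24, Fnip1 at 4.86 ± 0.11, Fnip2 at 2.30 ± 0.077, Tfeb at 1.30 ± 0.030 and Mitf at 0.552 ± 0.063. With the length of the longest transcript in place of the merged exons, Tfeb came to 3.14 and Fnip2 to 2.64, so the order of this pair depends on the length used. In starved WT Flcn reached 57.8 ± 0.41 CPM per kb, above Fnip1 at 20.4 ± 0.048 and Fnip2 at 5.46 ± 0.20. In starved RA the order was the same, with 25.2 ± 0.37, 12.5 ± 0.076 and 4.0 ± 0.24.

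Tfe3 made up most of the MiT/TFE RNA per kb. Its share of the sum of Tfeb, Tfe3, Mitf and Tfec was 74.0% and 74.0% in fed WT and 85.7% and 88.0% in starved WT. In RA it was 76.8% and 77.6% when fed and 84.0% and 85.4% when starved. The share of Tfeb was 17.0% and 17.5% in fed WT and 3.08% and 3.15% in starved WT, and in RA it was 14% and 14.6% when fed and 4.12% and 3.38% when starved. In both genotypes the starved samples lay wholly above the fed ones for Tfe3 and wholly below them for Tfeb. With the longest transcript of each gene as its length, an alternative added after seeing the data, the mean share of Tfeb was 25.8% in fed WT, 5.08% in starved WT, 21.8% in fed RA and 6.12% in starved RA.

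**Figure D3:**
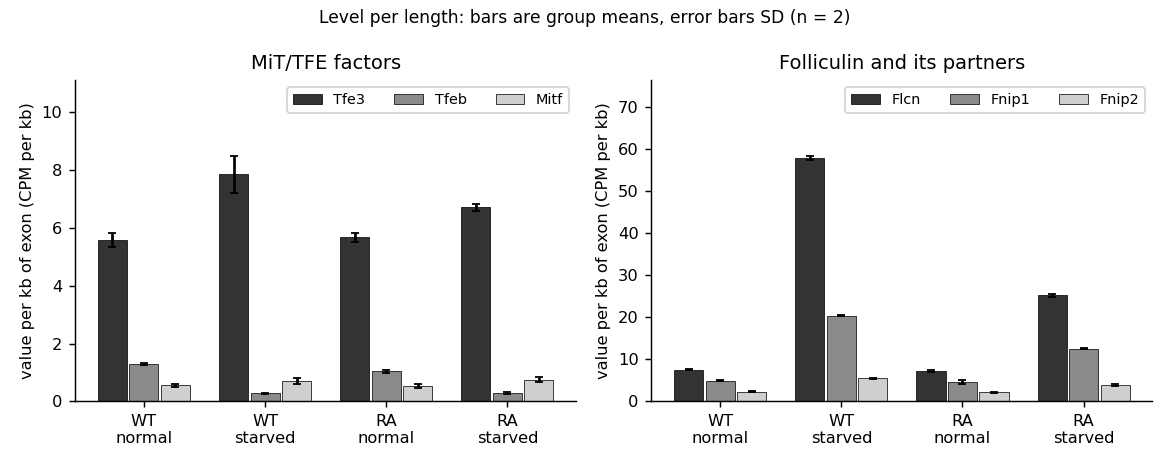
Level per kb of merged exon (CPM per kb, linear axes from 0) of the MiT/TFE factors and of folliculin and its partners in the 4 groups, as group means with SD (n = 2). Tfe3 is the tallest bar among the factors in every group, and the Flcn bar rises from 7.49 to 57.8 in WT and 7.26 to 25.2 in RA.

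The genes that work with the members were described by lists, which together held 80 genes, 77 of them tested. For every list, the counts stand beside 39.3% of all tested genes that rose and 39.2% that fell in WT. In RA these shares were 35.0% and 33.7%. The Rag GTPases and the Ragulator, the scaffold that holds them on the lysosome, are the direct partners of folliculin. All 10 tested genes of this list rose in WT, with a median of 0.59, against a median of 0.0049 over all tested genes. In RA 7 of the 10 rose, with a median of 0.32. The responses differed for 6 of the 10, each with the smaller rise in RA. Over all tested genes, 26.1% had a negative and 24.5% a positive difference of responses. These shares mix genes that rose with genes that fell in WT, so they are not matched to a list that rose. Rragd, which encodes RagD, a substrate of folliculin, stood at 0.826 and 1.05 in fed WT and at 14.6 and 14.7 in starved WT. The RA samples were at 0.736 and 0.891 when fed and at 3.35 and 2.93 when starved. The starved mean was 15.6 times the fed mean in WT and 3.86 times in RA, and the difference of the responses was -1.82 on the log2(value + 1) scale (SE 0.18, limma adjusted p = 2.54e-07). Rragc, which encodes RagC, rose by 1.36 in WT and 0.83 in RA, with a difference of -0.52 (SE 0.053, limma adjusted p = 4.82e-07). Rraga had the smallest called difference of responses on the list, at -0.26. Flcn, Rragc and Rragd thus all had a smaller rise in RA than in WT.

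Among 9 genes of mTORC1 and of the TSC complex that restrains it, 5 rose and 3 fell in WT, 5 rose and 1 fell in RA, and 3 responses were more positive and 3 more negative in RA. The shares over all tested genes are those given above for the Rag and Ragulator list. Akt1s1, which encodes the mTORC1 inhibitor PRAS40, rose by 1.15 in WT and differed by -0.54 between genotypes in its response (limma adjusted p = 1.16e-06). Deptor, another inhibitor, stood at -0.76 in WT and at 0.04 in RA (limma adjusted p = 0.766), a difference of 0.81 (limma adjusted p = 7.48e-04). The GATOR1 and C9orf72 complexes, in which some subunits but not all are folliculin-like, were represented by 6 tested genes. Of these, 3 rose and 3 fell in WT, and 3 rose and 0 fell in RA. Smcr8, a partner of C9orf72, rose by 1.5 in WT with a difference of -0.74 (limma adjusted p = 6.46e-08), and Wdr41, another subunit of that complex, fell by 0.91 in WT and rose by 0.26 in RA.

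Calcineurin, which dephosphorylates Tfeb, its calcium channel Mcoln1, the 14-3-3 proteins and the exporter Xpo1 made a list of 13 genes. In WT 5 of them rose and 8 fell, and in RA 4 rose and 8 fell. For this list and for the AMPK subunits, the shares over all tested genes are again those given above. Mcoln1, the lysosomal calcium channel, went from 42.8 and 43.0 to 247 and 241 in WT, while RA went from 40.9 and 42.9 to 129.3 and 129.7. Its response differed by -0.88 (SE 0.058, limma adjusted p = 2.79e-09), the direction seen for Flcn. The 14-3-3 gene Ywhah fell by 1.56 in WT, with a difference of responses of 0.32 (limma adjusted p = 1.63e-04), and Sfn, another 14-3-3 gene, had a difference of -1.01 (limma adjusted p = 2.19e-04). Of 6 tested AMPK subunits 1 rose and 4 fell in WT, 1 rose and 3 fell in RA, and 3 responses were more positive in RA. Those were Prkag2 at 0.49, Prkab2 at 0.39 and Prkaa1 at 0.36 in the difference of responses.

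CLEAR targets, lysosomal and autophagy genes described elsewhere as targets of Tfeb, were counted as a list. Binding and activity of the factors were not measured here, and whether the factors caused these changes was not tested. The list shares Rragc, Rragd and Mcoln1 with the lists above. In normal medium 11 of the 35 tested targets were higher in RA and 0 lower, with a median of 0.12 against 0.0075 over all genes. Of all tested genes, 6.68% were higher and 2.95% lower. Over all lists together the count of 11 became 4 without the filter on low values and 18 with the replicate block. Starvation raised 31 targets and lowered 2 in WT, with a median of 1.33, and raised 29 and lowered 1 in RA, with a median of 0.95. Under starvation 22 were lower and 4 higher in RA than in WT, with a median of -0.38, against 32.1% and 30.8% of all tested genes. The difference of the responses (RA minus WT) was negative for 23 and positive for 3, with a median of -0.43, against 26.1% and 24.5%. Some of the 23 were higher in RA in normal medium and were not called lower in starved RA. The shares over all tested genes mix genes that rose with genes that fell in WT. They are not matched to a list that mostly rose. Over the 1272 genes with a WT rise of 2-fold or more, the median RA share of the WT response was 0.633. Gpnmb, a lysosomal membrane glycoprotein gene, had the highest rise in WT on the log2(value + 1) scale, though Rragd rose by a larger fold of means, and it went from 7.61 and 6.83 to 77.1 and 78.9. In RA it went from 8.51 and 7.87 to 56.9 and 56.9, and its responses differed by -0.61 (limma adjusted p = 6.07e-05). Scarb2 fell by 0.48 in WT and Naglu rose in both genotypes, and both responses were more positive in RA, by 0.39. Tfeb RNA itself fell in the samples in which most of its listed targets rose.

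**Figure D4:**
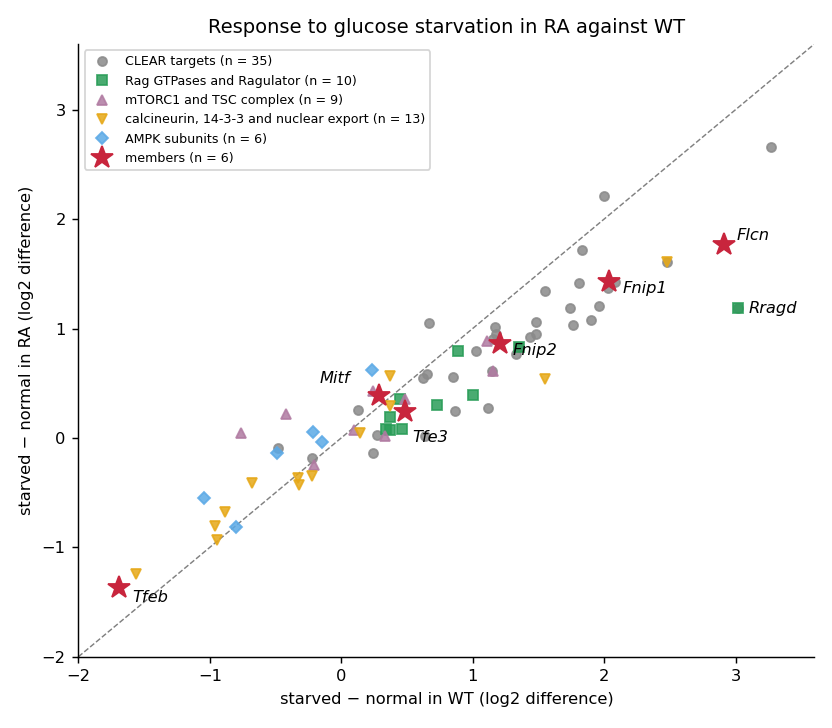
Log2 difference between starved and normal medium in RA against the same difference in WT for the 6 members (stars) and the tested genes of 5 lists, with a dashed line where both responses are equal. Flcn (2.91 in WT, 1.76 in RA) and Rragd (3.02, 1.19) lie farthest below the line, Fnip1 and Fnip2 lie below it, and Tfeb lies in the lower left, slightly above it.

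Fibroblast markers moved with starvation and with genotype as well. In normal medium 1 of the 8 was called higher in RA, Thy1 at 0.13, and 2 lower, Col3a1 at -0.25 and Pdgfrb. Of the 3 tested markers of other cell types, 1 was higher in RA in normal medium, Csf1r at 0.35. The share called over all tested genes was 9.63%. Of the 8 markers, 7 fell in starved WT, 5 fell and 1 rose in starved RA, and the responses were more positive in RA for 7 and more negative for 1. Their summed value was 10002 and 10080 in fed WT, 5306 and 5399 in starved WT, 9905 and 10232 in fed RA, and 7007 and 7025 in starved RA. Col3a1, a fibrillar collagen gene, fell by 4.09 in WT and by 2.38 in RA. The summed value of the 9 markers of other cell types was 14.5 to 15 in fed WT, 24.4 to 25.1 in starved WT, 16.8 to 17.9 in fed RA and 22.2 to 22.9 in starved RA. The part of these shifts in the differences of the members was not tested.

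The genes with the pattern most like each member were found by Pearson correlation of log2 values over the 8 samples, among 10497 or 10498 other genes with a mean value of at least 10. The samples form 4 groups of 2, so such a correlation mainly compares group means, and it is given as a description. For Flcn they were D10Wsu102e (r = 0.9996), Ranbp9 (r = 0.9995) and Hyou1 (r = 0.9994), a chaperone gene of the endoplasmic reticulum that stood at 190 and 193 in fed WT and at 1107 and 1055 in starved WT. There were 391 genes above 0.99 for Flcn, 301 for Fnip1, 232 for Fnip2 and 139 for Tfeb, so none of these patterns was rare. Fnip1 was most like Trpm7, E430025E21Rik and Frrs1, and Fnip2 was most like Dmtf1, Mbtd1 and Zxdc. For Tfeb they were Troap (r = 0.9992), a gene of dividing cells, the homeobox gene Hoxb8 and Maged1. Tfe3 had 2 genes above 0.99, Pmepa1 and Wwp2, followed by Gpn1. Mitf had 1, Ap4s1 (r = 0.9904), followed by Gm37376 and Nbeal1.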

How the data were processed

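RNA was measured in 8 polyA libraries of MEFs, prepared with a TruSeq kit and sequenced as read pairs. Per the submitters' processing notes, reads were mapped to mm9 with TopHat2 (version 2.0.9), and bedtools is named without a role. The study used edgeR for its differential analysis. The read counter, annotation and use of strand are not given in the sources used here. The authors deposited a signal per gene and sample, the read count over a library size that they scaled, in CPM, where plain CPM had been planned for, and the planned test was kept. In every sample 100% of the values above 0 were whole numbers of reads within a tolerance of 0.02, so reads were recovered. Of recovered counts from 1 to 9, between 78.2% and 80.5% were even, as would follow from counting each mate of a pair, so edgeR was also run on halved reads. The floor of 3 reads covers counting error only, and the 95% intervals come from the spread between samples.

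Groups were taken from the genotype and media labels. Values were transformed to log2(value + 1), and limma (version 3.58.1, R version 4.3.3) was fitted to all 8 samples with 1 mean for each group, using eBayes with a trend and 2-sided p-values with Benjamini-Hochberg adjustment over the 16232 genes of each contrast, and adjusted p-values under 0.05 were called. The contrasts were RA minus WT in each medium, starved minus normal in each genotype, and the interaction, the response in RA minus that in WT. The members and lists were chosen with earlier results of these data known. Named were the members, Tfec, the called genes with the highest and lowest WT response and interaction in each list, any Rag, Ragulator or AMPK gene, and the 3 genes most like each member in pattern. Alternatives that changed 1 choice each were other pseudocounts, filters and scalings, fits on the compared groups, with a replicate block or without the trend, stricter thresholds and omission of each sample. DESeq2 (version 1.42.0) and edgeR (version 4.0.16) on recovered reads changed the input, scaling and test together. The fits were also run on simulated data with changes set in starved WT alone, in far fewer genes than were called here. Only the starvation contrast in WT was scored, so the interaction was not tested that way. Exons and positions were taken from GENCODE M21 (GRCm38), and in it no exon base of a member was shared with another gene. Genes with names turned into dates, 26 rows, were not used by name.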

Additional observations from a re-analysis of the deposited data

Results flagged for a closer look

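The results below were marked because the response to starvation differed between RA and WT in a test of the difference itself (limma, interaction, Benjamini-Hochberg adjusted p under 0.05). They are given as the response in RA minus the response in WT on the log2(value + 1) scale. Among the members the differences were -1.15 for Flcn, -0.61 for Fnip1, -0.34 for Fnip2 and -0.24 for Tfe3. The Tfe3 difference missed the threshold under several alternatives, which are given with the other effects of the processing. Tfeb, at 0.31, and Mitf, at 0.10, did not pass.

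Among the genes around the members, Rragd had a difference of -1.82 and Rraga of -0.26, which bound the called Rag and Ragulator genes. Akt1s1 had -0.54 and Deptor 0.81 among the genes of mTORC1 and the TSC complex. Smcr8 had -0.74 and Wdr41 1.17 among the GATOR1 and C9orf72 genes. Mcoln1 had -0.88, Sfn -1.01 and Ywhah 0.32. The AMPK subunits Prkag2, Prkab2 and Prkaa1 had 0.49, 0.39 and 0.36. Of the CLEAR targets, Gpnmb had -0.61, while Scarb2 and Naglu both had 0.39. These genes were picked as the extremes of their lists or by name, and 24.5% of all tested genes had a positive and 26.1% a negative difference at the same threshold. No group was examined for a sample far from the others, since each held 2 samples.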

How the results depend on the processing

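The members gave 30 differences, of which 19 were called. In refits at the same threshold those 19 gave 395 values, of which 384 kept the call and the direction, 11 kept the direction and missed the threshold, and 0 changed sign, and 16 of the 19 kept the call in every such refit. The exceptions were the Tfe3 interaction (without the filter and without the trend -0.24, total-read scaling -0.17, quantile normalization -0.18, 1 sample left out -0.32 to -0.16), the Mitf response in RA (without the filter 0.39, 1 sample left out 0.28 to 0.49) and Tfe3 between the starved groups (1 sample left out -0.30 to -0.14).

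Of the differences that were not called, the Mitf response in WT passed with quantile normalization (0.46) and with the replicate block (0.29), and ran from 0.18 to 0.40 with 1 sample left out, where it passed without WT normal replicate 1 (0.38) and without WT starved replicate 2 (0.40). The Tfeb interaction passed without the trend (0.31). Signs turned for small differences. In normal medium Tfe3 stood at -0.024 with total-read scaling and at -0.020 to 0.067 with 1 sample left out, Mitf at -0.12 to 0.058 and Fnip1 at -0.20 to 0.032. Under starvation Tfeb stood at -0.045 and Mitf at -0.11 with quantile normalization, and at -0.037 to 0.13 and -0.045 to 0.18 with 1 sample left out. The Mitf interaction stood at -0.087 with quantile normalization and at -0.014 to 0.21 with 1 sample left out. The cause was not tested.

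Counts of members called in normal medium ran from 0 to 1 with 1 sample left out. An adjusted p under 1e-05 left 2 members between the starved groups and 1 in the interaction, and a change of at least 2-fold left 1, 1 and, in the RA response, 3. Of all list genes in normal medium, 4 were called without the filter, 18 with the replicate block and 4 to 13 with 1 sample left out (4 without WT normal replicate 1, 5 without WT normal replicate 2, 7 without RA normal replicate 2). By Spearman correlation, 1 of the 3 most similar genes was shared for Tfeb and Fnip1 and 0 for Tfe3, Flcn and Fnip2, but rho over 8 samples reached its limit of 1 for several genes, including Dmtf1 and Zxdc with Fnip2, so it does not order them.

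Same-numbered samples of different groups deviated together with correlations of -0.01 to 0.16, so the numbers were not taken to pair samples. The replicate block changed no other call of a member. Tfeb and Mitf rest on 72 to 359 reads per sample, which limits small differences. Where a group was left with 1 sample, that sample was assumed to vary like the others.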

Other observations

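In Mitf, replicate 1 was higher than replicate 2 in 4 of 4 groups, by a ratio of 1.17 to 1.21, while the starved mean was 1.29 times the fed mean in WT and 1.40 times in RA. Flcn and Fnip2 also had replicate 1 higher in 4 of 4 groups, Fnip1 in 3, Tfeb in 2 and Tfe3 in 1. Over all tested genes, 2753 of 16232 (17.0%) had 1 order of the replicates in all 4 groups. Whether the numbers mark a shared culture or preparation is not given in the sources used here.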
